A study of Mus musculus with 12 samples.

Results

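The genes described here build or assemble the axoneme, the microtubule machine that runs through the sperm tail. They comprise the axonemal dyneins with their assembly and docking factors, the radial spoke and central pair genes, the complexes tied to the arms, and the tektins. The 42 genes were chosen by name from this known function, with earlier results of these data known. All 42 symbols were found once each among the 20718 genes of the expression table, and 41 passed the filter on low counts. The gene left out was Rsph4a, with 2 to 12 estimated counts per library.

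RNA was taken from whole testes of male mice (strain given as IRC mouse in the labels, ICR in the study's methods) after delivery of a lentivirus into the testis. F0_5251KD received virus with short hairpins against the long non-coding RNA lncRNA5251, and F0_3NC received the control virus of the same backbone, LV3. F0_5251OV received virus carrying full-length lncRNA5251, and F0_5NC received the empty vector of that backbone, LV5. Per the study's methods the males were injected at 4 weeks of age, mated at 9 weeks and kept for 4 days after the mating period, and lncRNA5251 was altered to ask what it does in spermatogenesis. Each group had 3 libraries, and nothing in the labels says that these came from separate animals, so the p-values measure the spread between libraries. All 4 groups carried a virus, and no untreated group was analysed here. The sources used here state no restriction of the virus to a cell type and no share of cells reached. The table has 0 rows named lncRNA5251, so the extent of knockdown and overexpression is not shown by these data. Depth was nearly even, from 15431383 to 16355720 estimated counts per library. Germ cell markers were abundant, as a testis should show: 12 markers of elongated spermatids summed to 41975 to 51894 FPKM per library, against 553 to 1117 FPKM for 12 Sertoli cell markers. FPKM is the fragment count scaled by transcript length and library depth, and it is the scale used for every level below. In whole tissue, fewer cells of a type and less RNA per cell cannot be told apart.

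The axoneme is a ring of doublet microtubules around a central pair. Outer and inner dynein arms, whose heavy chains are the motors, slide neighbouring doublets past each other, while radial spokes and the central pair time that sliding and tektins run inside the doublets. Dynein arms are put together in the cytoplasm by dedicated assembly factors, then attached to the doublet by docking and ruler proteins. In the testis the genes are switched on in spermatocytes and round spermatids, before the tail grows, and several of them have a close relative used by the motile cilia of airway, brain and oviduct instead of the sperm tail. Loss of many of these genes in people or mice gives immotile sperm, ciliary disease or both.

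Many ciliary genes are controlled through the X-box, a palindrome of arms of the type GTTGCC bound by RFX factors, and Rfx2 is needed for spermatids to form a tail. Promoter sequence from RefSeq (GRCm38.p6, 250 bases before to 50 bases from the start of the gene) was at hand for 38 of the 42 genes. Both strands were searched. The starts used for promoters can differ from the gene coordinates given in other paragraphs. For Cfap44 those coordinates begin at 44394742, before the stretch shown here. For Tekt4 they run from 25454549 to 25476602 and enclose both stretches. The full palindrome (GTTGCC, then AT, then GGCAAC) occurred in 0 of the 38 promoters and in 0.0185% of the promoters of all 16251 genes. A looser spelling, GTTNCC and GGNAAC with any 2 bases between them, occurred in 1 of 38, that of Ccdc151, and in 0.535% of all. The loosest, GTTNCC and GNNAC with any 3 bases between them, which includes the other long spellings, occurred in 7 of 38 (18.4%) and in 2.85% of all promoters. A lone arm GTTGCC, which overlaps the longer spellings, occurred in 14 of 38 (36.8%) and in 14.9% of all. These spellings were kept after matches of several others had been counted, and a match is a description of letters, not of binding. The 8 matches of the loosest spelling are shown so that the letters behind these counts can be read. The other 31 of the 38 promoters held no such match. They are written 5′ to 3′ on the strand of the gene with the matched 14 bases in capitals. In Spag16 and Tekt1 the spelling reads on the gene's strand, in Ccdc151 on both strands, and in the others on the opposite strand.
Spag16, chr1:69826859-69826888 (+), motif beginning 103 bases before the start: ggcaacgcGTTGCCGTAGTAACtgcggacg
Hydin, chr8:110266948-110266977 (+), 21 bases before the start: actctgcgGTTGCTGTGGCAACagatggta
Ccdc151, chr9:22002647-22002676 (-), 34 bases before the start: cgcgggcgGTTTCCTTGGGAACgtgggcgg
Tekt1, chr11:72361876-72361905 (-), 15 bases before the start: tccgtccgGTTGCCATAGAGACcgcagttt
Dnaaf2, chr12:69198425-69198454 (-), 17 bases before the start: tcccaggcGTTACTATGGCAACaaagcacg
Cfap44, chr16:44394764-44394793 (+), 27 bases before the start: ggagggacGTTGCTATGGCAACcgcagtaa
Tekt4, chr17:25471422-25471451 (+), 160 bases before the start: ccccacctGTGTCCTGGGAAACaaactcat
Tekt4, chr17:25471582-25471611 (+), motif beginning at the start: tatacaatGTTCCTTAGGCAACcaggaacc
The 7 genes differed widely in level, from a mean of 15.2 FPKM for Hydin to 257 FPKM for Tekt1, and belonged to the central pair, docking, assembly, tether and tektin groups. The 3 genes that match on their own strand had means of 68.4, 32.2 and 257 FPKM.

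Most axoneme genes were abundant testis transcripts. Their median was 38.7 FPKM (mean of the 12 libraries per gene), against 3.09 FPKM for all genes of the table. Of the 42, 10 had a mean above 100 FPKM, 26 lay between 10 and 100, 2 between 1 and 10, and 4 below 1. As many as 38 lay above the median gene and 19 at or above the 90th percentile. Together they took 1.031 to 1.149% of the estimated counts of a library and 0.623 to 0.689% of its summed FPKM.

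**Figure D1:**
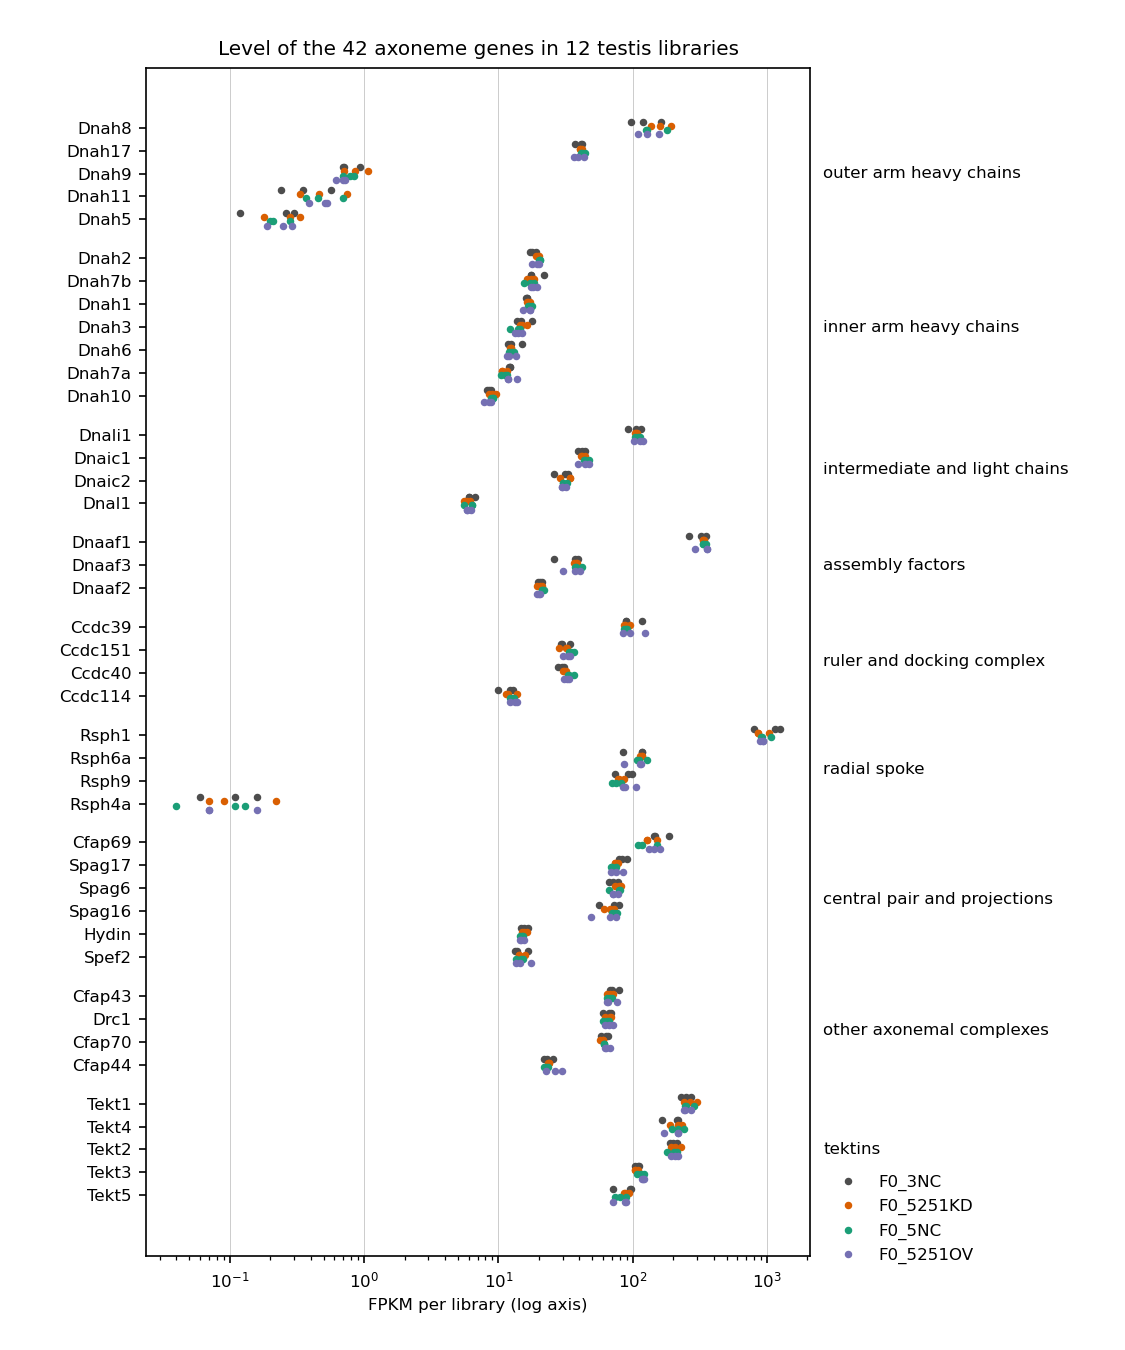
FPKM on a log axis (horizontal) of each of the 42 genes, grouped by role, with 1 point per library and colours for the 4 groups. The 4 genes below 1 FPKM (Dnah9, Dnah11, Dnah5 and Rsph4a) stand apart from the rest, and the colours of a gene mostly overlap.

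Among the outer arm heavy chains, the motors that give the tail most of its power, the members fell into very different ranges. Dnah8 (gene ID 13417, GRCm38 chromosome 17, 30626935 to 30875762) had a mean of 141 FPKM and was between 96.37 and 193.54 in the 12 libraries. Its close relative Dnah5, the corresponding motor of motile cilia, had a mean of 0.241 FPKM, with 29 to 77 counts per library. Over the summed libraries Dnah8 was 586 times as abundant as Dnah5 per length (95% counting interval 544 to 632), and the ratio ran from 371 to 1075 among single libraries. Dnah17, the sperm partner heavy chain, had a mean of 40.8 FPKM and a narrow range of 36.73 to 44.3. Its relatives Dnah9 and Dnah11, which serve motile cilia, had means of 0.777 and 0.47 FPKM. Dnah17 was 52.5 times as abundant as Dnah9 (interval 49.9 to 55.2; 38.1 to 69.9 among libraries) and 86.8 times as abundant as Dnah11 (80.7 to 93.5; 54.8 to 170 among libraries). Dnah11 is uncertain, since it had fractional counts in 12 of 12 libraries and shares 642 exonic bases with Cdca7l on the opposite strand. The order held in 12 of 12 libraries for each pair. These intervals cover counting error only.

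The radial spoke gave the same kind of pair. Rsph6a, the spoke head protein of sperm, had a mean of 111 FPKM (84.57 to 127.55), and Rsph4a, its counterpart in motile cilia, a mean of 0.107 FPKM from 71 counts in all 12 libraries. The ratio was 1030 (interval 816 to 1318), with 529 to 3189 among libraries. Rsph1, another spoke head gene, was the most abundant of the 42 with a mean of 966 FPKM, at percentile 99.8 of all genes. Rsph9, also of the spoke head, had a mean of 84.4 FPKM. Rsph1 thus exceeded Rsph9 and Rsph6a in every library, since its lowest library (794.21 FPKM) lay above their highest.

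The inner arm heavy chains were the most uniform group. Their 7 means lay between 8.73 FPKM for Dnah10 and 19.2 FPKM for Dnah2, with Dnah7b at 17.9, Dnah1 at 16.6, Dnah3 at 14.6, Dnah6 at 12.6 and Dnah7a at 11.6. Neighbours in this order overlapped in their library ranges, as with Dnah2 (17.28 to 20.5 FPKM) and Dnah7b (15.6 to 21.97). The exception was Dnah10, whose highest library (9.56 FPKM) lay below the lowest of Dnah7a (10.52). The values of Dnah7a and Dnah7b carry a further doubt, because these near-identical genes had fractional counts in 12 of 12 libraries, as arises when a read is shared between copies. Dnah3 shares 1506 exonic bases with Lyrm1 on the opposite strand, the longest such overlap among the 42 genes.

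Among the smaller dynein subunits, the inner arm light chain gene Dnali1 had a mean of 108 FPKM, the outer arm intermediate chain genes Dnaic1 and Dnaic2 had 43.2 and 30.9, and the outer arm light chain gene Dnal1 had 6.03. Of the assembly factors, Dnaaf1 had a mean of 331 FPKM, Dnaaf3 36.6 and Dnaaf2 20.5. Fractional counts, in 12 of 12 libraries, leave Dnaaf1 uncertain, and the same holds for Cfap43 among the genes below. The ruler gene Ccdc39 had a mean of 94.4 FPKM and its partner Ccdc40 31.7, although both proteins work in 1 complex. Ccdc39 had fractional counts in 12 of 12 libraries and shares 1256 exonic bases with Ttc14 on the opposite strand. The sources used here name no step that marks the strand, so it is not known whether the counting kept the reads of such pairs apart. The docking complex genes Ccdc151 and Ccdc114 had means of 32.2 and 12.4 FPKM. In all, 11 of the 42 genes overlap an exon of another gene of the table. Besides Dnah11, Dnah3, Ccdc39 and Spag17 (820 bases with Wdr3), these are Dnaaf1 (584 bases with Taf1c), Dnal1 (384 with Pnma1), Cfap43 (164 with Itprip), Dnah17 (93 with Pgs1), Dnaaf3 (86 with Tnni3), Dnali1 (43 with Gnl2) and Dnaic1 (15 with Enho), whose values are uncertain by the reads that fall there.

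Of the central pair and its projections, Cfap69 had a mean of 141 FPKM, Spag17 76.6, Spag6 74.6 and Spag16 68.4. The very large Hydin (15.2 FPKM) and Spef2 (14.7 FPKM) were lower, and their library ranges of 14.41 to 16.62 and 13.23 to 17.4 overlapped. Among the other complexes, Cfap43 had 69.1 FPKM, Drc1 of the nexin-dynein regulatory complex 65.4, the outer arm gene Cfap70 61.7 and Cfap44, the partner of Cfap43 in the tether that holds an inner arm, 24.0. The tektins were the most abundant group by median (204 FPKM). Tekt1 stood at 257 FPKM, Tekt4 at 207, Tekt2 at 204, Tekt3 at 112 and Tekt5 at 85.1. Tekt4 and Tekt2 did not differ beyond their spread over libraries, which was 163.88 to 239.82 and 180.78 to 227.11 FPKM.

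With knockdown, compared with F0_3NC, no axoneme gene passed the test. The count was 0 of 41 by edgeR's quasi-likelihood test with Benjamini-Hochberg adjustment over 16296 genes, where 0.0245% of all genes were called, and it was 0 by DESeq2 as well. At an unadjusted p under 0.05 the count was 0 of 41, against 4.74% of all genes. In the fit 22 genes were higher and 19 lower, with a median log2 fold change of 0.008 (all genes -0.004). The median size of the log2 difference, whatever its sign, was 0.09, against 0.11 over all genes. For 38 of the 41 genes the 95% interval lay within a 1.5-fold change in either direction, and for 40 within a 2-fold change. The exceptions at 1.5-fold were Dnah11 and Dnah5, whose counts were low, and Dnah8, which varied most within groups among the genes at 1 FPKM or more.

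**Figure D2:**
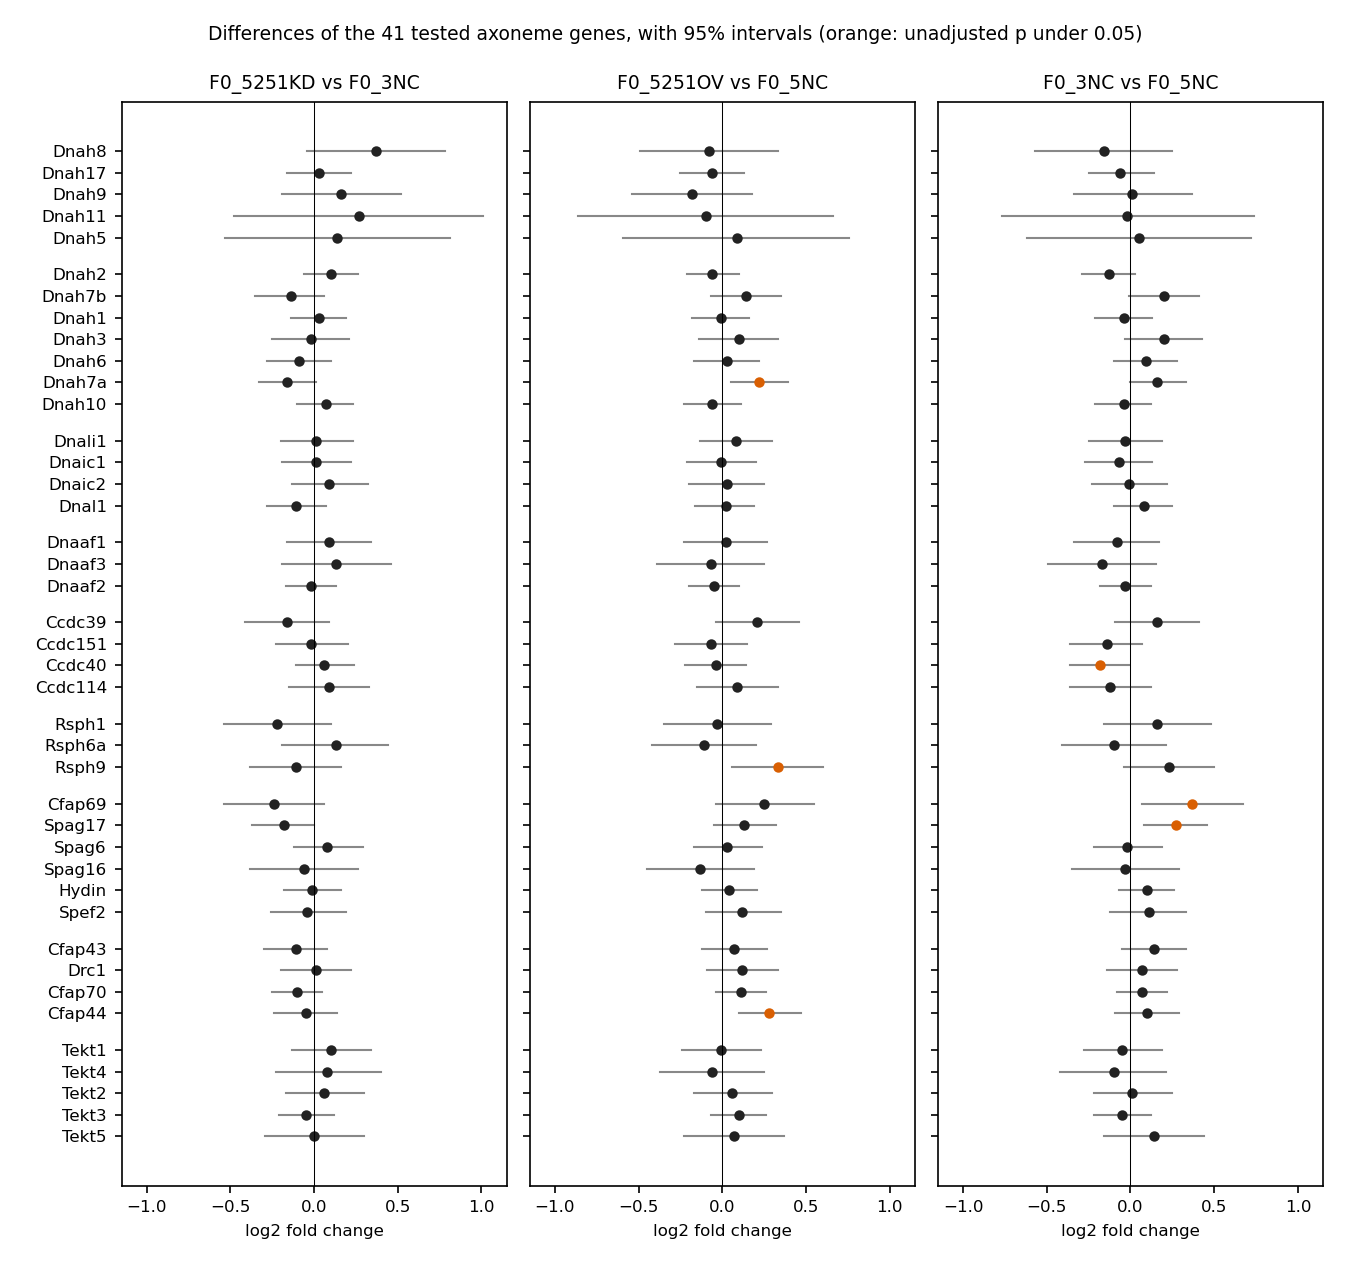
Log2 fold change (horizontal, points) with 95% interval (lines) of the 41 tested genes in 3 comparisons, in the order of the roles. In the knockdown panel no point is orange, and the intervals are widest for Dnah11 (0.75 to either side of the point).

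The 5 genes with the smallest p in the knockdown comparison came from the central pair, the arms and the spoke. Spag17 (gene ID 74362, chromosome 3, 99885417 to 100143322) encodes a central pair projection protein. It was at 73.35, 74.19 and 77.02 FPKM in F0_5251KD and at 82.85, 91.07 and 78.81 in F0_3NC. The groups did not overlap. The log2 fold change was -0.18 (SE 0.087, adjusted p = 0.897 by edgeR), and its overlap with Wdr3 leaves part of its level uncertain. The inner arm heavy chain gene Dnah7a (gene ID 627872, chromosome 1, 53396995 to 53707301) was at 10.64, 10.69 and 11.52 FPKM against 11.9, 12.15 and 12.13, again without overlap (log2 fold change -0.16, SE 0.079). Groups without overlap were found for these 2 of 41 genes, both lower, and for 11.8% of all genes (6.28% lower).

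Dnah8 showed the largest difference with knockdown, at 193.54, 136.49 and 159.34 FPKM against 96.37, 160.9 and 118.92 in F0_3NC. The groups overlapped through the second F0_3NC library, and the log2 fold change was 0.37 (SE 0.190). Cfap69 (gene ID 207686, chromosome 5, 5579278 to 5664232), needed to form the sperm tail, was at 127.88, 128.11 and 151.89 FPKM against 144.19, 186.37 and 145.83 (log2 fold change -0.24, SE 0.139). Rsph1 was at 1032.68, 857.92 and 861.64 FPKM against 1244.62, 794.21 and 1143.22 (log2 fold change -0.22, SE 0.149). For these 2 genes as well the ranges overlapped. The adjusted p by edgeR was 0.897 for each of the 5 genes.

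With overexpression, compared with F0_5NC, again 0 of 41 genes passed the edgeR test, where 0.0% of all genes (0 of 16296) were called, and the count of axoneme genes was also 0 by DESeq2. At an unadjusted p under 0.05 there were 3 of 41, all higher in F0_5251OV, against 8.77% of all genes in either direction and 3.97% higher. Higher values were fitted for 24 genes and lower values for 17, with a median log2 fold change of 0.027 (all genes -0.002). The median size of the difference was 0.07, against 0.13 over all genes. Intervals lay within 1.5-fold for 38 genes and within 2-fold for 41 of 41.

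Cfap44 (gene ID 212517, chromosome 16, 44394742 to 44482694) was at 29.87, 26.26 and 22.69 FPKM in F0_5251OV and at 22.01, 23.36 and 22.44 in F0_5NC. Its log2 fold change was 0.28 (SE 0.087, adjusted p = 0.526 by edgeR). On the FPKM scale the lowest F0_5251OV library lay inside the F0_5NC range, while the scaled counts used in the test did not overlap. Dnah7a was at 13.84, 11.78 and 11.81 FPKM against 11.14, 11.51 and 10.52, without overlap (log2 fold change 0.22, SE 0.079, adjusted p = 0.551 by edgeR). Rsph9 (gene ID 75564, chromosome 17, 46122038 to 46144242) was at 84.85, 105.41 and 87.83 FPKM against 74.67, 70.18 and 81.89, also without overlap (log2 fold change 0.33, SE 0.126, adjusted p = 0.552 by edgeR).

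Cfap69 was at 159.73, 132.04 and 144.71 FPKM against 108.78, 117.33 and 150.46 in F0_5NC, which overlap (log2 fold change 0.25, SE 0.139, adjusted p = 0.600 by edgeR). Ccdc39 was at 123.55, 95.93 and 84.24 FPKM against 89.76, 85.52 and 90.16. The difference was 0.21 on the log2 scale, with an SE of 0.117 and an adjusted p of 0.604 by edgeR. It rested on the first F0_5251OV library and was 0.07 without it. On scaled counts 5 of the 41 genes had groups that did not overlap (Cfap44, Dnah7a, Rsph9 and Cfap70 higher, Dnah9 lower), and so did 13.9% of all genes (7.33% higher, 6.57% lower).

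**Figure D3:**
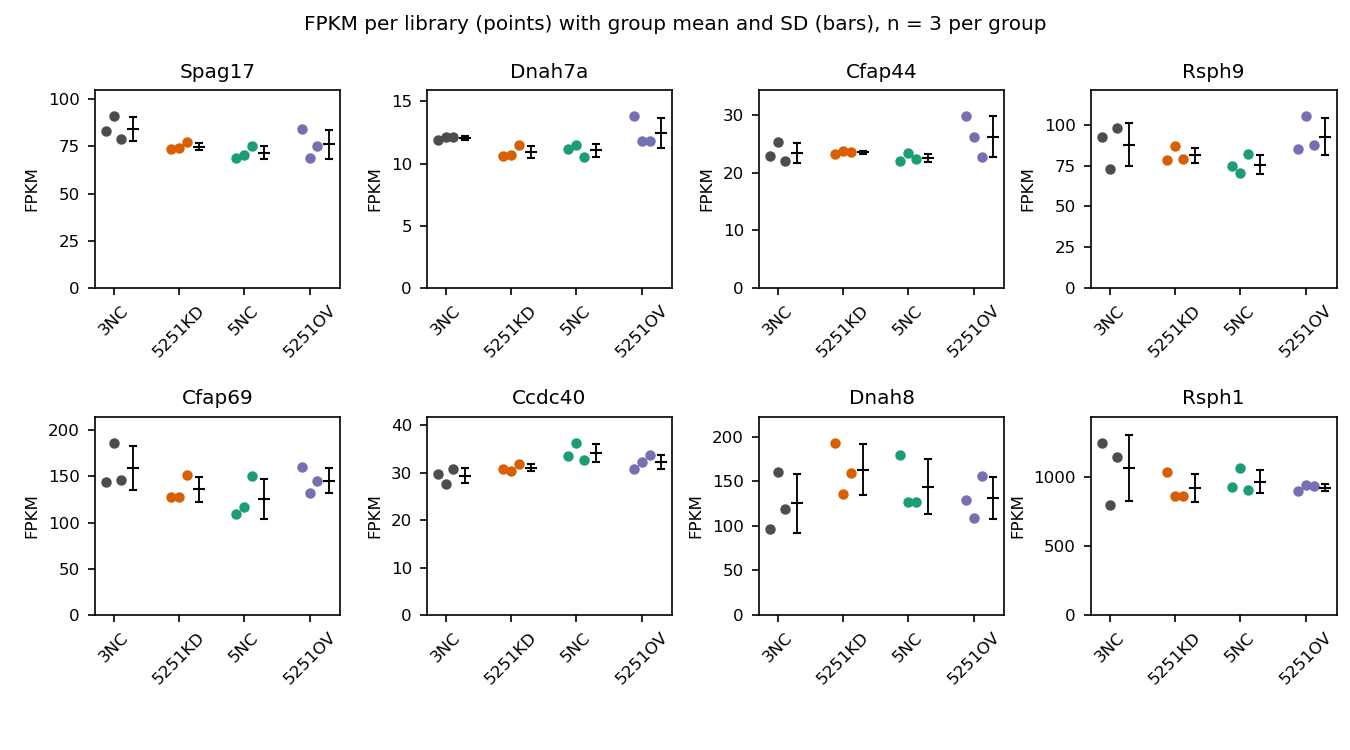
FPKM (vertical axis, starting at 0) of 8 of the genes with the smallest p, with 1 point per library and bars for the group mean and SD (n = 3). Dnah7a and Spag17 were lower in the 3 F0_5251KD libraries than in the 3 F0_3NC libraries, while Rsph1 overlaps between groups because the second F0_3NC library lies at 794.21 FPKM.

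The controls themselves were compared because they differ in vector backbone. Between F0_3NC and F0_5NC 0 of 41 axoneme genes passed the edgeR test, where 0.331% of all genes were called, and DESeq2 also called 0 of them. At an unadjusted p under 0.05 there were 3 of 41 (2 higher in F0_3NC, 1 lower), against 11.9% of all genes (6.41% higher, 5.47% lower). The median log2 fold change was -0.007 (all genes 0.0), and 38 of 41 intervals lay within 1.5-fold. This comparison shares the F0_3NC libraries with the knockdown comparison and the F0_5NC libraries with the overexpression comparison, so the values of a gene in them are not independent.

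Spag17 was higher in F0_3NC than in F0_5NC, where it was at 68.74, 70.27 and 75.3 FPKM, by 0.27 on the log2 scale, with an SE of 0.087 and an adjusted p of 0.303 by edgeR. Here too the groups did not overlap. Cfap69 differed by 0.37 (SE 0.139, adjusted p = 0.360 by edgeR) with overlapping libraries. Ccdc40 (gene ID 207607, chromosome 11, 119228490 to 119265248) was at 29.8, 27.6 and 30.81 FPKM in F0_3NC and at 33.55, 36.34 and 32.74 in F0_5NC. The log2 fold change was -0.18 (SE 0.083, adjusted p = 0.410 by edgeR), and its scaled counts overlapped although its FPKM values did not. Dnah7b was at 17.48, 21.97 and 17.55 FPKM against 17.04, 15.6 and 18.26 (log2 fold change 0.20, SE 0.096). Dnah7a differed by 0.16 (SE 0.079). The adjusted p by edgeR was 0.430 for both Dnah7 genes. Groups did not overlap for 2 of 41 genes (Spag17 and Dnah7a, both higher) and for 17.0% of all genes (9.59% higher).

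Whether knockdown and overexpression differed in effect was tested as the difference of the log2 fold changes. It passed for 0 of 41 genes by edgeR and for 0 by DESeq2, and edgeR called 0.0% of all genes. At an unadjusted p under 0.05 there were 6 of 41, all with the lower value for knockdown, against 11.3% of all genes in either direction and 6.08% in that one. Dnah7a had the smallest p, with a difference of -0.38 (SE 0.111, adjusted p = 0.394 by edgeR). The difference was -0.33 for Cfap44 (SE 0.122), -0.32 for Spag17 (SE 0.124), -0.49 for Cfap69 (SE 0.196) and -0.44 for Rsph9 (SE 0.178), with adjusted p of 0.403 to 0.420 by edgeR. The sixth gene was Ccdc39 at -0.37. All 6 also had higher fitted values in F0_3NC than in F0_5NC, by 0.1 to 0.37 on the log2 scale. Since both controls enter the difference, opposite effects of the viruses cannot be told apart here from a difference between the controls. Intervals were wider here, and 27 of 41 lay within 1.5-fold.

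By role, the fitted directions were mixed and 0 genes of any role passed. In the knockdown comparison 5 of 5 outer arm heavy chains had higher values (0.03 to 0.37 on the log2 scale), 4 of 5 tektins (-0.05 to 0.10), 3 of 7 inner arm heavy chains (-0.16 to 0.10) and 1 of 6 central pair genes (-0.24 to 0.08). In the overexpression comparison 1 of 5 outer arm heavy chains had a higher value (-0.18 to 0.09), 3 of 5 tektins (-0.06 to 0.10), 4 of 7 inner arm heavy chains (-0.06 to 0.22) and 5 of 6 central pair genes (-0.13 to 0.25). Of the outer arm values only those of Dnah8 and Dnah17 come from genes above 1 FPKM. The 4 genes of the other complexes had higher values with overexpression (0.07 to 0.28), and 1 of 4 did so with knockdown (-0.11 to 0.01).

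Within groups, the SD of log2 CPM (counts scaled to the depth of the library) had a median of 0.127 over the 38 genes at 1 FPKM or more, against 0.159 over 13332 genes at that level, and ran from 0.057 for Dnaaf2 to 0.284 for Dnah8. The second F0_3NC library stood apart most. Of the 38 genes, 4 lay more than 0.25 log2 above their mean of 12 libraries (Cfap69, Dnah7b, Ccdc39 and Dnah3) and 8 more than 0.25 below it (Dnaaf3, Rsph6a, Tekt4, Dnaaf1, Ccdc114, Rsph1, Dnaic2 and Tekt5). The SD of its deviations over the 38 genes was 0.233, against 0.066 in the third F0_5NC library. In the same library the spermatocyte markers had a median deviation of 0.17 and the elongated spermatid markers of -0.22, and their part in the result was not tested.

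The first F0_5251OV library showed a similar split. Ccdc39, Cfap44 and Dnah7a lay above their means and Rsph6a, Tekt4, Dnaaf3 and Tekt5 below them by more than 0.25, beside medians of 0.10 for spermatocyte and -0.09 for elongated spermatid markers. In the first F0_5NC library 7 genes lay below (Cfap69, Dnah3, Tekt5, Tekt2, Rsph9, Spag6 and Spag17) and Dnah8 above, the median of all 41 genes was -0.15, and round and elongated spermatid markers had medians of -0.27 and -0.24. The part of these markers was not tested.

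**Figure D4:**
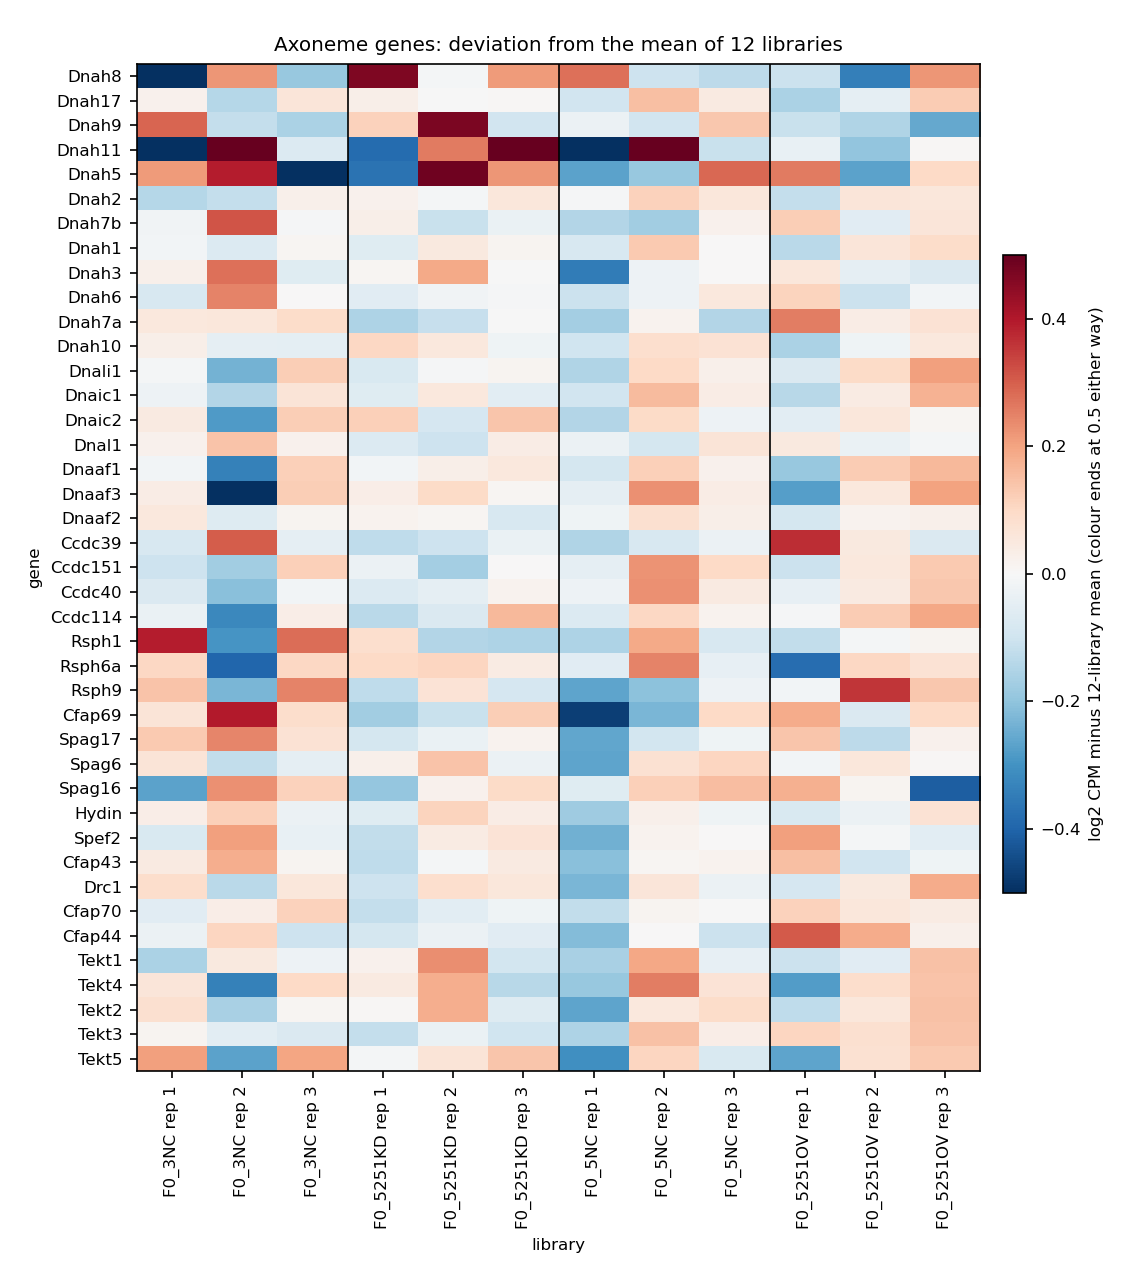
Deviation of each of the 41 genes (rows, by role) from its mean over the 12 libraries (columns, by group), in log2 CPM, with red above and blue below. The second F0_3NC library and the first F0_5251OV library show red and blue genes side by side, and the first F0_5NC library is mostly blue.

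Some values named above depended on single libraries, although 0 of 41 genes passed the edgeR test when any 1 of the 12 was left out. The knockdown difference of Rsph1 was -0.40 without the second F0_3NC library and -0.09 without the first. That of Dnah8 was 0.58 without the second F0_3NC library, 0.20 without the first and 0.23 without the first F0_5251KD library. That of Cfap69 was -0.12 without the second F0_3NC library. With overexpression, Cfap69 differed by 0.13 without the first F0_5NC library and by 0.43 without the third. Between controls, Cfap69 differed by 0.24 without the first F0_5NC library, Ccdc40 by -0.11 without the second F0_5NC library, and Dnah7b by 0.09 without the second F0_3NC library. Without the first F0_5251OV library, Cfap44 with overexpression was at 0.21 and Dnah7a at 0.15 on the log2 scale.

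Cell type markers were examined beside the comparisons. In the knockdown comparison 3 of 15 spermatocyte, 5 of 12 round spermatid and 8 of 12 elongated spermatid markers had higher values, with 0 called. The spermatocyte markers summed to 1073 to 1157 FPKM per library in F0_5251KD and 1125 to 1238 in F0_3NC. In the overexpression comparison 10 of 15 spermatocyte, 11 of 12 round spermatid and 9 of 12 elongated spermatid markers had higher values, beside 0 of 12 Sertoli cell markers, with 0 called. The round spermatid markers summed to 1950 to 2073 FPKM in F0_5251OV and 1770 to 2006 in F0_5NC, and the Sertoli cell markers to 575 to 695 and 712 to 1117 FPKM. In F0_3NC against F0_5NC, 12 of 15 spermatocyte, 11 of 12 round spermatid and 4 of 12 elongated spermatid markers were higher. So were 0 of 12 Sertoli cell markers, with 0 called. For the spermatocyte, round spermatid and Sertoli cell lists, a shift with overexpression cannot be told apart here from a difference between the controls. None of these lists had a marker at 0. Their part in the values of the axoneme genes was not tested.

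Ciliated cells line the efferent ducts that leave the testis, so markers of such cells were set beside the cilia-type genes Dnah5, Dnah9, Dnah11 and Rsph4a. Epididymis markers were set beside them as a separate list, which does not stand for ciliated cells. Epididymis markers varied widely, with 7 of 8 symbols in the table summing to 2.39 FPKM in the first F0_5251KD library and 106.25 in the second F0_5NC library. The summed level of the 4 cilia-type genes stayed between 1.23 and 2.08 FPKM, and it was 1.45 and 1.64 in those 2 libraries. Of 12 markers of multiciliated and efferent duct cells, 9 were below 1 FPKM, including Mcidas, the switch of the multiciliated fate, at 0.01, while Deup1 (143 FPKM) and Foxj1 (39.0 FPKM) made up nearly all of the sum of 169 to 193 FPKM. Their part in the level of the cilia-type genes was not tested. In the comparison of the controls 1 of 4 tested epididymis markers was called, Spink8, which was lower in F0_3NC (adjusted p = 0.0235 by edgeR). Spink8 was named after its value was seen.

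Other axoneme genes, from a list of known components, passed no test either. Of 91 symbols listed, 80 were in the table and tested, and 0 passed the edgeR test in any of the comparisons. Higher values were fitted for 35 of 80 with knockdown and for 65 of 80 with overexpression, with median log2 fold changes of -0.02 and 0.07. Over all genes 49.1% and 49.5% had higher values in these comparisons. In F0_3NC against F0_5NC 44 of 80 had higher values (median 0.02), against 50.1% of all genes. For the difference of effects 27 of 80 had a positive value (median -0.07), against 50.4% of all genes. An unadjusted p under 0.05 was reached by 2 of 80 with knockdown (4.74% of all genes), 8 with overexpression (8.77%), 4 between the controls (11.9%) and 11 for the difference of effects (11.3%). The inner arm heavy chain gene Dnah12 had a mean of 14.1 FPKM (12.85 to 16.61), inside the range of the inner arm genes above. Dnajb13, a radial spoke protein, had 262 FPKM (231.68 to 284.69). Among 9 regulators of ciliary genes, of which 7 were tested, 0 passed. Rfx2 had a mean of 103 FPKM (77.16 to 115.28) and Foxj1, the master regulator of motile cilia, 39.0 FPKM (30.1 to 43.76).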

How the data were processed

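Whole-testis RNA of 4 groups of 3 libraries was analysed. Per the study's methods, mRNA was enriched with oligo(dT), primed with random hexamers and aligned with SOAPaligner to reference genes (build mm10 per the submitters' processing notes). No source used here names the program behind the table. The estimated counts deposited by the authors, one per gene and library, were not whole in 12% of cells (tolerance 1e-06), and were rounded before testing. The FPKM values deposited by the authors were used for levels. The unit was recognised from how the values scale with count and length. A further 18 columns of per-sample values matched no sample here and were not used, nor were columns of group averages.

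A two-sided quasi-likelihood F test (edgeR 4.0.16 under R 4.3.3, TMM scaling and filterByExpr) was fitted once to all 12 libraries, leaving 8 residual degrees of freedom. Adjustment over 16296 genes was by Benjamini-Hochberg, and an adjusted p below 0.05 was called. Each SE was taken from the log2 fold change and its F statistic (size over root F), and each 95% interval from that SE and edgeR's moderated degrees of freedom. DESeq2 1.42.0, limma 3.58.1 on log2(FPKM + 1) and log2(FPKM + 0.1), other scalings and filters, a replicate block and leaving out each library were alternatives. The test was tried on simulated data. Gene coordinates are given on GRCm38.

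Members, roles, marker lists and lists of other axoneme genes were chosen with earlier results of these data known. Values per library are given for the 5 members with the smallest unadjusted p in each comparison, a rule that was to add every member past the threshold, and levels are given for all. For ratios, counting intervals use a Poisson model of the lower gene's counts.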

Additional observations from a re-analysis of the deposited data

How the results depend on the processing

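The count of axoneme genes past the threshold was 0 in all 4 comparisons under each of the 20 alternatives, except that a fit of only the groups compared does not exist for the difference of effects, which uses all groups. For the genes given with a p, 395 alternative values were computed, of which 0 passed the threshold and 0 changed sign. The median log2 fold change of the axoneme genes ranged from -0.025 to 0.043 (knockdown), -0.029 to 0.084 (overexpression), -0.062 to 0.056 (controls) and -0.077 to 0.067 (difference of effects) when 1 library was left out. Replicate numbers did not pair the libraries (correlation of same-numbered deviations -0.184 to 0.079). With a replicate block 0 axoneme genes were called, their medians were 0.004, 0.029, -0.01 and 0.004 in the order above, and 2 genes of the whole table were called with knockdown.

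Counts over all genes were less stable. With knockdown 4 genes were called, 20 by DESeq2, 2 and 0 by limma on log2(FPKM + 1) and log2(FPKM + 0.1), and 0 to 7 when 1 library was left out. With overexpression 0 were called, 29 by DESeq2, 3 without the filter on low counts, 3 from a fit of only the groups compared and 0 to 1 without 1 library. Between controls 54 were called, 131 by DESeq2 and 30 (without the third F0_5NC library) to 68 without 1 library. For the difference of effects 0 were called, 34 by DESeq2, 1 by limma on log2(FPKM + 1) and 0 to 1 without 1 library. The cause was not tested. Depth limits Dnah5, Dnah11 and Rsph4a most.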

Other observations

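Markers of somatic testis cells and of blood gave opposite fitted directions in the treatment comparisons, which share no library, and 0 of them were called in either by edgeR. With knockdown, higher values than in F0_3NC were fitted for 9 of 12 Sertoli, 7 of 9 Leydig, 8 of 8 peritubular smooth muscle, 7 of 9 macrophage, 10 of 10 endothelial and 3 of 4 hemoglobin genes. With overexpression, higher values than in F0_5NC were fitted for 0 of 12, 0 of 9, 1 of 8, 1 of 9, 1 of 10 and 0 of 4 of them. The 4 tested genes of the hemoglobin list include Alas2, which is not a globin gene. Among them Hbb-bs ran from 0 to 26.84 FPKM over the libraries and Hbb-bt from 0 to 6.15. The median log2 fold changes of the peritubular genes were 0.17 and -0.42, and those of the endothelial genes 0.25 and -0.18. At an unadjusted p under 0.05 there were 0 and 6 of the 8 peritubular genes, against 4.74% and 8.77% of all genes. The controls also differed: in F0_3NC against F0_5NC higher values were fitted for 0 of 12 Sertoli (median -0.26), 3 of 9 Leydig (-0.16), 3 of 8 peritubular (-0.19), 2 of 9 macrophage (-0.29), 1 of 10 endothelial (-0.14) and 3 of 4 hemoglobin genes (0.31), with 0 called by edgeR. At an unadjusted p under 0.05 there were 6 of the 12 Sertoli genes, against 11.9% of all genes. Outside the hemoglobin genes, lower values in F0_3NC and higher values in F0_5NC each enter 1 of the treatment comparisons. For those lists the opposite directions cannot be told apart from a difference between the controls. For the hemoglobin genes the fitted difference between the controls ran the other way, and the cause was not tested. Spermatogonial markers were split, with 4 of 9 higher in both treatment comparisons. For the difference of effects, positive values were fitted for 12 of 12 Sertoli, 8 of 9 Leydig and 7 of 8 peritubular genes. The counts were 8 of 9 for macrophage, 10 of 10 for endothelial and 4 of 4 for hemoglobin genes. Of all these genes 0 were called, and both controls enter this difference.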
